A study of Mus musculus with 21 samples.

Results

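The genes described here encode the histones, the proteins that package nuclear DNA, and were taken as every probe whose gene name on the array starts with Hist1h, Hist2h, Hist3h or Hist4h. The rule found 89 probes of 59 genes among 45281 probes carrying 30854 names: 7 probes of 6 genes for the linker histone H1, 24 of 17 for H2A, 20 of 15 for H2B, 18 of 9 for H3 and 20 of 12 for H4. Transcripts were measured on Illumina bead arrays. The cells were Ba/F3, a line of mouse pro-B cells kept growing with interleukin 3. In batch A, cells were moved in droplets on a digital microfluidic device, where electrode voltages drive the liquid, for 15 min at 400 Vpp and 18 kHz (3 arrays) or at 400 Vpp and 1 kHz (3 arrays), beside 3 arrays of untreated cells. In batch B, 3 arrays held untreated cells and 3 each held cells heated for 15 min at 42, 47 or 52 °C. All 7 groups were the same cell line, and the labels name no genetic change in any group and do not state the time between treatment and lysis. No label says that the 3 samples of a group were separate cultures, so the spread behind a p-value here may be technical. It is the spread of arrays within groups, pooled over all groups of a batch, so the 18 kHz arrays also enter the tests at 1 kHz.

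H2A, H2B, H3 and H4 form the protein core around which DNA winds, and H1 binds the DNA where it enters and leaves that core. Most of these genes lie in clusters and are transcribed in S phase, when new DNA needs new histones, and their mRNAs end in a conserved stem-loop instead of a poly(A) tail. The stem-loop binding protein and the U7 small nuclear ribonucleoprotein make that end, and the mRNAs are degraded quickly when DNA synthesis stops. Some of the genes also give polyadenylated transcripts. The labelling kit named in the labels copies RNA from an oligo(dT) primer, so a probe reports the amount of transcript that was primed that way, not all transcript of the gene. Members of a class have nearly identical coding sequences, so that a probe named for one gene may also bind its copies, and each gene name below is uncertain in that sense. In RNA from a whole culture, fewer cells with a transcript and less of it per cell cannot be told apart.

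The promoters of 5 members on which the results turn are printed here, for a linker gene that was lower after heat at 42, 47 and 52 °C, a linker gene that was higher at 47 and 52 °C, and 1 gene each of H2B, H4 and H2A. Each is the RefSeq window of build GRCm38.p6 with 250 bases before and 50 bases after the annotated start, written 5′ to 3′ on the gene's strand. Capitals mark matches, on either strand, to the CCAAT box (CCAAT), to the sequence TATAAA of the TATA box, to the histone H1 box AAACACA or to the octamer ATTTGCAT. Hist1h1c (now H1f2) lies at chr13:23738557-23738856 (+), Hist1h1b (now H1f5) at chr13:21780576-21780875 (-), Hist1h2bg (now H2bc8) at chr13:23571150-23571449 (+), Hist1h4d (now H4c4) at chr13:23581318-23581617 (+) and Hist1h2an (now H2ac22) at chr13:21787199-21787498 (-).
Hist1h1c: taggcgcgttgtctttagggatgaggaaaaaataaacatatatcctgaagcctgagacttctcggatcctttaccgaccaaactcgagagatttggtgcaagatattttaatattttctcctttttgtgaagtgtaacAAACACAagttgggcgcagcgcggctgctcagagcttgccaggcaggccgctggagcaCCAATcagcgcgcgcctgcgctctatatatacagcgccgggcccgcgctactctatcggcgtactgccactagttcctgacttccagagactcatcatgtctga
Hist1h1b: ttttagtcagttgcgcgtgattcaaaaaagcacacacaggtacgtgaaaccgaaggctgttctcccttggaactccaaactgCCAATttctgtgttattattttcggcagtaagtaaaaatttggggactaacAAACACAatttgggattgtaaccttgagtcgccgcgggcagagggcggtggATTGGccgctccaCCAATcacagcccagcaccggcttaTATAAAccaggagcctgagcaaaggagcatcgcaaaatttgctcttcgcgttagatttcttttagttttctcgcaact
Hist1h2bg: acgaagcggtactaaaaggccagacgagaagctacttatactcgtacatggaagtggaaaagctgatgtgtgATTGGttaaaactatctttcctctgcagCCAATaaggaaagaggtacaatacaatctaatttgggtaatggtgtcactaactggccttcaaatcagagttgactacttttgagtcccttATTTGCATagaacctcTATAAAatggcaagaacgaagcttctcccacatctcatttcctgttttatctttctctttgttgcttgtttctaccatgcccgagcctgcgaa
Hist1h4d: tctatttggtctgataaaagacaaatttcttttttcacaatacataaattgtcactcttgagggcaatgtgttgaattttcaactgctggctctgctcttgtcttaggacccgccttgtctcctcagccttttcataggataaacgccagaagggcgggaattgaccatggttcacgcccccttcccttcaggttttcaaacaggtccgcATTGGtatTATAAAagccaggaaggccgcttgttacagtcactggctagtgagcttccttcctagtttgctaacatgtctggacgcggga
Hist1h2an: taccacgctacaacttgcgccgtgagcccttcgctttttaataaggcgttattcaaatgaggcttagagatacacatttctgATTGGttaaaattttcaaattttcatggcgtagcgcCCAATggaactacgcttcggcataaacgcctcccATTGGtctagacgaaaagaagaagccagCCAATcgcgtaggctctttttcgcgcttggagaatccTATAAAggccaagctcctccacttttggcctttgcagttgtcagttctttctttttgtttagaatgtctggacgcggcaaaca

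A window was found for 53 of the 59 genes, 54 windows in all, of which 44 lay on chromosome 13 and 7 on chromosome 3. CCAAT stood in 46 of them (85.2%), against 37.4% of all 32851 windows of this length, and TATAAA in 31 (57.4%), against 13.6% of all windows. The classes differed in what they held. All 17 H2A, 13 H2B and 7 H3 windows and all 6 H1 windows had CCAAT, but 3 of 11 H4 windows did. AAACACA stood in 5 of 6 H1 windows, against 7.18% of all windows. The octamer ATTTGCAT was found in 7 of 17 H2A and 7 of 13 H2B windows and in 0 of the windows of the other classes, against 1.74% of all windows. These are matches of letters and do not show that a factor binds.

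Per array, 9420 to 14355 probes were detected in batch A (deposited detection p below 0.01) and 12004 to 13234 in batch B, and precision is limited by the small number of arrays. The 18 kHz arrays of replicates 1 and 2 were dim, with 95th percentiles of the bead intensity of 732.7 and 277.4 against 1482.4 to 1524.2 in untreated arrays of that batch, and detected 49 and 36 histone probes against 55 or 56. Among markers of pro-B or interleukin 3 dependent cells with a probe, Il3ra, Csf2rb, Csf2rb2, Ptprc, Spi1 and Cd79b were detected on every array, Kit, Pax5 and Rag1 on none of either batch, Vpreb1 on none of batch A and Ebf1 on none of batch B. The fibroblast collagens Col1a1, Col1a2 and Col3a1 were detected on 0 arrays, and among the markers of T cells, epithelium and endothelium Pecam1 was detected on every array. Each batch was read on 2 beadchips, and all 3 untreated arrays of batch A shared a chip.

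Histone probes were kept for testing where they were detected on at least 3 arrays of a batch, 59 probes of 42 genes in batch A and 67 of 49 genes in batch B. Of the 89 probes 58 were kept in both batches, 1 in batch A only, 9 in batch B only and 21 in neither. In batch B the kept probes numbered 3 of 7 for H1, 21 of 24 for H2A, 15 of 20 for H2B, 13 of 18 for H3 and 15 of 20 for H4. Levels are log2 normalized intensities, a change is the treated mean minus the untreated mean of the same batch, and a probe is called higher or lower where the limma p, adjusted by Benjamini-Hochberg over all kept probes, was below 0.05. Levels of different probes are not compared. Across the 5 treatments 27 probes of 23 genes were called against untreated cells at least once, and 7 of them in at least 2 treatments. The 27 were 3 of H1, 9 of H2A, 4 of H2B, 4 of H3 and 7 of H4. The share of all kept probes called at least once was not computed. By treatment, 2.94% of all kept probes were called at 18 kHz, 0% at 1 kHz, 2.38% at 42 °C, 7.83% at 47 °C and 12.8% at 52 °C.

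**Figure D1:**
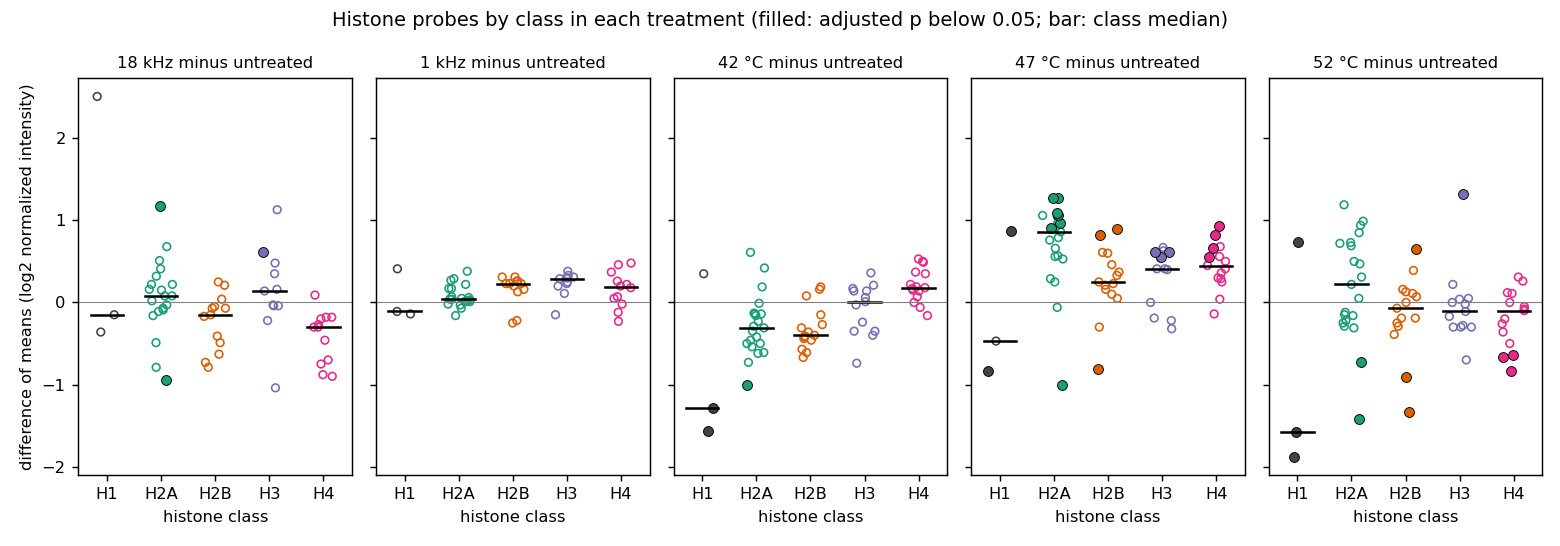
Change of every kept histone probe against the untreated mean of its batch (y axis, log2) by class (x axis) in 18 kHz, 1 kHz, 42 °C, 47 °C and 52 °C cells. Filled points passed an adjusted p of 0.05 and bars are class medians; at 47 °C the medians of H2A, H2B, H3 and H4 lie at 0.86, 0.25, 0.41 and 0.45.

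Heat at 42 °C was set against untreated cells to see which histone transcripts differed after the mildest heating. The linker gene Hist1h1c, which encodes H1.2, fell on both of its probes, and 1 H2A probe also fell. These were 3 of 67 kept probes called lower (4.48%, against 1.21% of all kept probes) and 0 called higher (against 1.18% of all). The median change of the 67 probes was -0.15, against 0 for all kept probes. By class the medians were -0.31 for H2A, -0.40 for H2B, 0.01 for H3 and 0.18 for H4. Among H2B probes 12 of 15 were below 0 and 8 had 3 heated arrays below all 3 untreated ones (lower without overlap in 13.3% of all kept probes). Of the 15 probes 0 were called and 6 had an unadjusted p below 0.05. The share of all kept probes with such a p was not computed. The H2B probe with the smallest p was that of Hist1h2bf (-0.57 ± 0.17 SE, limma adjusted p = 0.13). In H4, 13 of 15 probes were above 0 and 0 were called, with Hist1h4f probe 6380377 nearest to the threshold (0.49 ± 0.15 SE, limma adjusted p = 0.136). Among the 13 H3 probes 0 were called, and Hist2h3c1 probe 7330739 had the smallest p (-0.40 ± 0.14 SE, limma adjusted p = 0.192).

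Hist1h1c was read by 2 probes, which lay below untreated cells at each temperature. Probe 50079 stood at 10.23, 10.63 and 10.57 on untreated arrays, at 8.87, 8.87 and 8.98 at 42 °C, at 9.65, 9.69 and 9.58 at 47 °C and at 9.01, 8.34 and 8.45 at 52 °C. Every heated array lay below every untreated one, and the 47 °C arrays lay above those of 42 °C and 52 °C. Its level fell by 1.57 at 42 °C (SE 0.18, 2.97-fold lower, limma adjusted p = 0.000518), by 0.84 at 47 °C (SE 0.18, 1.79-fold lower, adjusted p = 0.0188) and by 1.88 at 52 °C (SE 0.18, 3.67-fold lower, adjusted p = 0.000116). Probe 7650273 stood at 10.49, 10.59 and 10.43 on untreated arrays, at 9.21, 9.22 and 9.24 at 42 °C, at 9.82, 10.13 and 10.15 at 47 °C and at 9.48, 8.63 and 8.65 at 52 °C. The order of the groups was the same on this probe, again without overlap with untreated cells. It fell by 1.28 at 42 °C (limma adjusted p = 0.00427) and by 1.58 at 52 °C (adjusted p = 0.000868), and its change of -0.47 ± 0.20 SE at 47 °C was not called. Between temperatures, both probes were lower at 52 °C than at 47 °C (-1.04 and -1.11, limma adjusted p = 0.017 and 0.0196). At 47 °C they were higher than at 42 °C by 0.73 and 0.81 without passing the test (limma adjusted p = 0.0516 and 0.058), and the difference between 52 °C and 42 °C was -0.31 and -0.30 (adjusted p = 0.326 and 0.409). The calls at 42 °C and 52 °C stood whichever of the 6 arrays was left out, with changes of probe 50079 between -1.69 and -1.49 at 42 °C and between -2.09 and -1.75 at 52 °C. The call of probe 50079 at 47 °C was lost without untreated replicate 2 or 3 or 47 °C replicate 3 (adjusted p up to 0.0791). Within beadchip 1 alone, which held 1 array at 42 °C and 2 untreated arrays, the change of probe 50079 was -1.73, and within beadchip 2, which held 2 arrays at 42 °C and 1 untreated array, it was -1.31, neither of them called.

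In actuated cells the same probes of Hist1h1c gave no call. Probe 50079 stood at 9.36, 9.24 and 10.40 on 18 kHz arrays, at 9.86, 10.09 and 9.80 on 1 kHz arrays and at 9.99, 10.05 and 10.05 on untreated arrays of batch A. At 18 kHz the 2 dim arrays were the low ones and the third lay above the untreated arrays, and at 1 kHz the groups overlapped. The SDs were 0.64 at 18 kHz, 0.15 at 1 kHz and 0.03 in untreated cells, and the model pools them. The changes were -0.36 ± 0.28 SE at 18 kHz (limma adjusted p = 0.398) and -0.11 ± 0.28 SE at 1 kHz (adjusted p = 1).

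**Figure D2:**
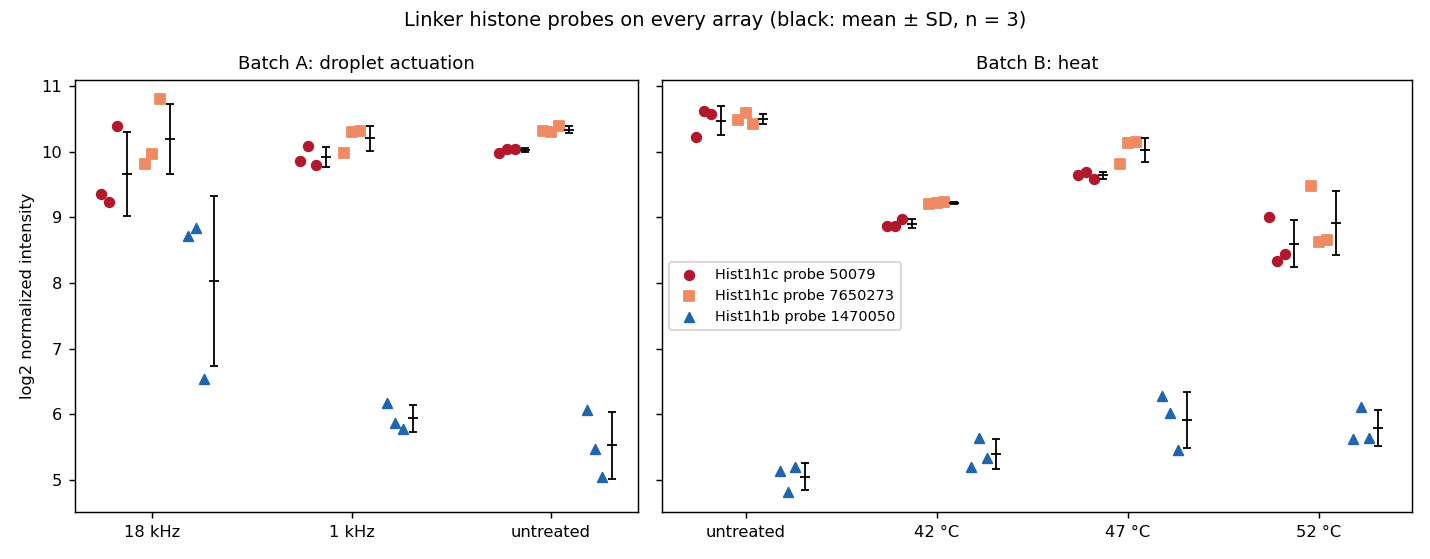
Log2 normalized intensity (y axis) of the 2 probes of Hist1h1c and of the probe of Hist1h1b on every array, by group, with black marks for mean ± SD (n = 3). Hist1h1c arrays at 42 and 52 °C lie below all untreated arrays of batch B, and the Hist1h1b points at 18 kHz lie at 8.72, 8.84 and 6.54.

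Hist1h1b, the gene of the linker subtype H1.5, went the other way. Its probe 1470050 stood at 5.14, 4.81 and 5.19 on untreated arrays, where it was not detected, at 5.20, 5.64 and 5.34 at 42 °C, at 6.28, 6.02 and 5.45 at 47 °C and at 5.62, 6.11 and 5.64 at 52 °C. All arrays of each heated group lay above every untreated one, and it was detected on 2 of 3 arrays at 42 °C and on 3 of 3 at 47 and 52 °C. The untreated group gives only a bound, on the normalized scale. There the probe was at least 1.65-fold higher at 47 °C (limma adjusted p = 0.0343) and at least 1.51-fold higher at 52 °C (adjusted p = 0.0453). A bound sets each undetected array at the lowest signal among its detected probes, or at the probe's own level if that was higher. At 42 °C the bound was 1.15-fold and the change was not called (adjusted p = 0.506). Both calls were lost when any untreated array was left out. Median scaling also ended both (0.58 and 0.51, limma adjusted p = 0.0572 and 0.0916). So did leaving the background in, no detection filter, a block for the replicate number, only the 2 groups and the authors' deposited log2 table. An offset of 50 and a block for the beadchip ended the 52 °C call. Before normalization the bead intensities were 169.8, 166.4 and 151.4 at 47 °C and 155, 152 and 129.4 at 52 °C. In untreated cells they were 154.2, 138.9 and 159.4, so both heated groups overlapped them. At 18 kHz its level was 8.72, 8.84 and 6.54, against 6.06, 5.47 and 5.04 in untreated cells, with no overlap. That change of 2.51 ± 0.56 SE was the largest of any histone probe in that comparison and did not pass (limma adjusted p = 0.0531). It was called under median scaling (1.37, adjusted p = 0.0305) and without background correction (1.24, adjusted p = 0.0338). The 2 high values came from the 2 dim arrays, and the bead intensities before normalization were 332.3, 167.1 and 173.2 at 18 kHz, against 192.4, 162.6 and 146.6 in untreated cells, so that before normalization replicates 2 and 3 lay within the untreated range. The part of array brightness in this difference was not tested. The other linker genes had no kept probe.

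Heat at 47 °C was set against untreated cells in the same way, and here most core histone probes stood higher. Of 67 kept probes 16 were called higher (23.9%, against 3.42% of all kept probes) and 3 lower (4.48%, against 4.41%). The called rises were 6 of 21 H2A probes, 2 of 15 H2B, 3 of 13 H3, 4 of 15 H4 and the probe of Hist1h1b. The median change was 0.53, against -0.01 for all kept probes, and 56 of the 67 probes were above 0. All 3 arrays at 47 °C lay above all 3 untreated ones for 34 probes (16.4% of all kept probes did so). Class medians were 0.86 for H2A, 0.25 for H2B, 0.41 for H3 and 0.45 for H4. The calls were sensitive to single arrays. With 1 of the 6 arrays left out, 9 probes were called without untreated replicate 1 (4.8% of all kept probes were called). There were 7 without 47 °C replicate 1 (5.07% of all) and 4 without 47 °C replicate 2 or 3 (3.66% and 2% of all). There were 2 of 67 without untreated replicate 3 (1.74% of all). Without untreated replicate 2 there was 1 of 67 (1.99% of all), so the histone share was then not above that of all. The median stayed between 0.42 and 0.56. Quantile normalization gives all arrays the same distribution. With the arrays scaled by their medians alone, the median of all kept probes at 47 °C was -0.46. That of the histone probes was 0.03 (0.49 above it), and 6 histone probes were called higher and 8 lower. The histone median thus stayed above that of all kept probes. The direction of single probes relative to the other transcripts was not tested.

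The H2A probes had the largest rises, and the first 5 named next were called higher under median scaling too. Hist1h2an probe 4610129 stood at 13.61, 13.89 and 13.70 at 47 °C, against 12.96, 12.14 and 12.30 in untreated cells. The lowest 47 °C array was above the highest untreated array, which was replicate 1. The probe rose 2.41-fold (log2 1.27 ± 0.31 SE, limma adjusted p = 0.0318; 0.89 under median scaling). Hist1h2af probe 4250711 stood at 13.79, 14.07 and 13.82 at 47 °C, against 13.18, 12.30 and 12.40 in untreated cells, and rose 2.41-fold (adjusted p = 0.0436). Hist1h2ai probe 5490193 rose 2.13-fold (adjusted p = 0.0447) and Hist1h2ad probe 7160253 rose 2.09-fold (adjusted p = 0.0365), both with untreated replicate 1 as the highest untreated array. Hist1h2ad probe 7160253 had bead intensities before normalization of 18922.5, 22740.1 and 23385.9 at 47 °C, against 17618.3, 10743.3 and 13333.7 in untreated cells. Bead intensities in batch B went up to 46603.5. Hist2h2ac probe 240450 rose 1.89-fold (adjusted p = 0.0466), with 14.63, 14.58 and 14.67 at 47 °C against 13.90, 13.53 and 13.70 in untreated cells. Hist1h2ab rose 1.95-fold, with 6.97, 6.83 and 7.07 at 47 °C against 5.70, 6.15 and 6.12 in untreated cells (adjusted p = 0.0266), and was not called under median scaling (0.48, adjusted p = 0.141). In all, 19 of 21 H2A probes were above 0, including 13 that were not called. The exception with a call was Hist2h2aa1 probe 7150356, described with the falls.

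For H4, Hist1h4d was the probe with the smallest p. Its probe stood at 6.30, 6.48 and 6.38 at 47 °C, against 5.75, 5.34 and 5.27 in untreated cells. The groups did not overlap, and the probe rose 1.91-fold (0.93 ± 0.17 SE, limma adjusted p = 0.00897). The call stood whichever array was left out, but not under median scaling (0.55, adjusted p = 0.0692). Its bead intensities before normalization were 170.6, 183.7 and 186.3 at 47 °C, against 176.4, 155.8 and 162.8 in untreated cells. Hist1h4j (0.82, adjusted p = 0.0295), Hist1h4m probe 150291 (0.66, adjusted p = 0.0438) and Hist1h4f probe 6380377 (0.56, adjusted p = 0.0418) also rose, without overlap. Under median scaling these were not called either, with changes of 0.28 for Hist1h4j (adjusted p = 0.329), 0.15 for Hist1h4m probe 150291 (adjusted p = 0.635) and 0.08 for Hist1h4f probe 6380377 (adjusted p = 0.795). The probe of Hist1h4a stood at 9.23, 9.73 and 9.58 at 47 °C, against 9.05, 9.34 and 8.90 in untreated cells, with overlap and no call.

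For H3, 3 probes rose by similar amounts: Hist1h3d (0.61, limma adjusted p = 0.032), Hist1h3h probe 5690561 (0.61, adjusted p = 0.0323) and Hist1h3f probe 2600048 (0.55, adjusted p = 0.0493). Hist1h3d stood at 9.14, 9.47 and 9.05 at 47 °C, against 8.66, 8.55 and 8.63 in untreated cells, and every 47 °C array was the higher. None of these 3 H3 calls was kept under median scaling, where Hist1h3d changed by 0.07 (adjusted p = 0.811), Hist1h3h probe 5690561 by 0.06 (adjusted p = 0.867) and Hist1h3f probe 2600048 by -0.01 (adjusted p = 0.969). The probe of Hist2h3b stood at 12.19, 12.20 and 12.15 at 47 °C, against 12.58, 12.12 and 12.42 in untreated cells, and was not called, but it was lower under median scaling (-0.65, adjusted p = 0.0445). For H2B, Hist1h2be probe 2370524 stood at 8.65, 8.43 and 8.53 at 47 °C, against 7.52, 7.66 and 7.76 in untreated cells, well apart, and rose 1.85-fold (0.89 ± 0.18 SE, limma adjusted p = 0.0144, but 0.33 and adjusted p = 0.227 under median scaling). Hist2h2bb rose 1.76-fold (adjusted p = 0.0288), with 6.07, 6.43 and 5.67 at 47 °C against 5.05, 5.36 and 5.32 in untreated cells, where it was detected on 2 of 3 arrays, and was not called under median scaling (0.45, adjusted p = 0.117).

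**Figure D3:**
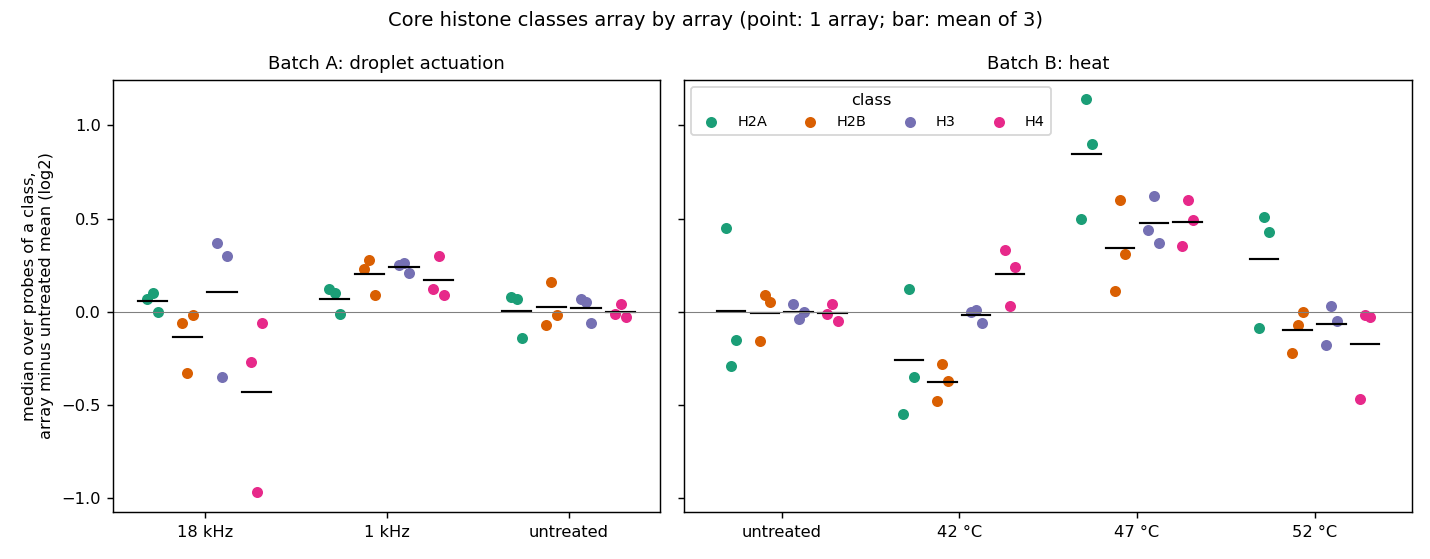
Median over the kept probes of each core class on 1 array, minus the untreated mean of its batch (y axis, log2), by group (x axis), with bars for the mean of 3 arrays. The 3 arrays at 47 °C lie at 0.50, 1.14 and 0.90 for H2A, and 52 °C replicate 1 lies at -0.09 beside 0.51 and 0.43.

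Heat at 52 °C, the highest temperature, gave calls in both directions. Hist1h1c and 3 H4 probes fell, as did 2 H2A and 2 H2B probes, while Hist1h1b, 1 H2B probe and 1 H3 probe rose. These were 9 of 67 kept probes called lower (13.4%, against 6.24% of all kept probes) and 3 called higher (4.48%, against 6.55%). The median change was -0.08, against -0.01 for all kept probes. Under median scaling 2 were called higher and 21 lower, with medians of -0.46 for histone probes and -0.43 for all kept probes, and with the values of the authors' deposited log2 table these numbered 9 and 9. The class medians were 0.22 for H2A, -0.07 for H2B, -0.11 for H3 and -0.10 for H4. Without 52 °C replicate 1, 11 probes were called higher and 9 lower (26.9% of all kept probes were called). Without untreated replicate 2 or 52 °C replicate 2, 0 were called higher and 5 lower (6.72% and 3.42% of all). The median lay between -0.18 and 0.12 over the 6 omissions.

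Among H4 probes, Hist1h4f probe 6860347 stood at 7.57, 7.21 and 7.70 at 52 °C, against 8.32, 8.40 and 8.28 in untreated cells. All 3 heated arrays were the lower, and the probe fell 1.79-fold (-0.84 ± 0.19 SE, limma adjusted p = 0.0153). Hist1h4i stood at 6.95, 6.75 and 7.0 at 52 °C, against 7.58, 7.68 and 7.38 in untreated cells, and fell 1.56-fold (adjusted p = 0.0159). Hist1h4m probe 6370047 stood at 6.19, 6.21 and 6.29 at 52 °C, against 6.88, 6.93 and 6.85 in untreated cells, and fell 1.58-fold (adjusted p = 0.0159). The groups did not overlap for any of these 3 probes. All 3 calls were lost without 52 °C replicate 2, and those of Hist1h4i and Hist1h4m also without untreated replicate 2. For H2B, Hist1h2bg stood at 4.94, 4.87 and 5.46 at 52 °C, against 6.39, 6.50 and 6.38 in untreated cells. It was detected on 1 of 3 arrays at 52 °C and on 3 of 3 untreated ones, and fell by 1.34 (SE 0.22, limma adjusted p = 0.00378). That call stood whichever array was left out, with changes between -1.53 and -1.24 (adjusted p up to 0.0216). Hist1h2bc fell at 47 °C (-0.81, adjusted p = 0.0496) and at 52 °C (-0.91, adjusted p = 0.0243), with 8.45, 8.81 and 8.57 on untreated arrays, 7.59, 8.37 and 7.87 at 42 °C, 7.77, 7.68 and 7.94 at 47 °C and 8.16, 7.36 and 7.57 at 52 °C. Its 47 °C call was lost without any 1 of the 6 arrays, and its 52 °C call without untreated replicate 2 or 3 or 52 °C replicate 2 or 3. Hist1h2be probe 2370524 rose at 52 °C too (0.65, adjusted p = 0.0325; 0.14, adjusted p = 0.615, under median scaling). Hist1h3f probe 5900400 stood at 6.05, 7.56 and 7.30 at 52 °C, against 5.21, 5.80 and 5.95 in untreated cells. The lowest heated array was barely above the highest untreated one, and the probe rose 2.49-fold (1.32 ± 0.33 SE, adjusted p = 0.0254), a call lost without untreated replicate 1 or 2 or 52 °C replicate 2 or 3. At 42 °C, where it was not detected, its arrays read 4.59, 5.05 and 5.09, so that it was at least 3.26-fold higher at 52 °C than at 42 °C (limma adjusted p = 0.00331).

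Hist2h2aa1 probe 7150356, of an H2A gene in the smaller cluster on chromosome 3, was called lower in the most treatments. It stood at 5.94, 6.23 and 5.83 on untreated arrays, at 4.64, 5.48 and 4.84 at 42 °C, at 4.70, 5.31 and 4.95 at 47 °C and at 4.72, 4.67 and 4.34 at 52 °C. It was detected on 3 of 3 untreated arrays, 1 of 3 at 42 °C, 1 of 3 at 47 °C and 0 of 3 at 52 °C, and no heated array reached the untreated range. It was lower at 42 °C and at 47 °C by 1.01 each (limma adjusted p = 0.035 and 0.0228), sizes that rest on heated arrays of which 2 of 3 were not above background and that were -0.28 each without background correction (adjusted p = 0.0925 and 0.0484). It was at least 1.68-fold lower at 52 °C (adjusted p = 0.00324), and the 52 °C call stood whichever array was left out. At 18 kHz it stood at 5.43, 4.63 and 5.16, not detected on any array, against 5.89, 6.04 and 6.11 in untreated cells (limma adjusted p = 0.0445). No fold is given there, since the undetected level of the dim arrays gives no bound above 1. The related Hist2h2aa2 fell at 52 °C (-0.72, adjusted p = 0.0438).

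Between temperatures, the level after quantile normalization was highest at 47 °C of the 3 heated groups for 55 of 67 probes. They were 18 of 21 H2A, 13 of 15 H2B, 10 of 13 H3, 11 of 15 H4 and all 3 H1 probes. The share of all kept probes that were highest at 47 °C was not computed. In the direct comparison of 47 °C with 42 °C, added after the data were seen, 9 probes were called higher (13.4%, against 1.08% of all kept probes) and 0 lower (against 1.3%), with a median of 0.52 against -0.01 for all kept probes. They were 4 of H2A, 4 of H2B and Hist1h4d. Hist2h2bb was at least 1.73-fold higher (limma adjusted p = 0.0052), Hist1h2bf rose 1.91-fold (adjusted p = 0.0148) and Hist1h2ad probe 7160253 rose 2.58-fold (adjusted p = 0.022). In the comparison of 52 °C with 47 °C, also added then, 10 probes were called lower (14.9%, against 1.74% of all kept probes) and 0 higher (against 1.73%), with a median of -0.48. These were both probes of Hist1h1c, 2 of H2B, 2 of H3 and 4 of H4. Hist1h4f probe 6380377 stood at 5.72, 5.87 and 5.91 at 52 °C, against 6.57, 6.69 and 7.02 at 47 °C, without overlap, and fell 1.90-fold (adjusted p = 0.0145). These counts also moved with single arrays, 1 to 8 for 47 °C against 42 °C and 0 to 14 for 52 °C against 47 °C. The first was 1 without 42 °C replicate 1 or 3 or 47 °C replicate 2 (1.1%, 0.669% and 1.16% of all kept probes called). The second was 0 without 47 °C replicate 3 (0.263% of all called), and 0 under median scaling. The medians stayed at 0.47 to 0.62 and at -0.60 to -0.39.

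In the comparison of 52 °C with 42 °C, 4 probes were called higher (5.97%, against 3.82% of all kept probes) and 6 lower (8.96%, against 3.62%), with a median of 0.07 against -0.01 for all. Under median scaling these were 1 higher and 7 lower, and without 52 °C replicate 1 they were 12 and 8 (17.5% of all kept probes called). The lower ones were 4 H4 probes (Hist1h4f 6380377 and 6860347, Hist1h4i and Hist1h4m 6370047, by 0.85, 0.84, 0.82 and 0.73), Hist1h2bg (-0.92) and Hist1h3g (-1.06), and 13 of 15 H4 probes were below 0. The higher ones were Hist1h2ad probe 7160253 (1.02), Hist1h2ai probe 5490193 (1.08), Hist2h2be probe 2510379 (0.67) and Hist1h3f probe 5900400. For both H2A probes and for Hist1h3g the arrays of the groups overlapped. Hist1h2ad probe 7160253 was low on 52 °C replicate 1 (13.57, beside 14.53 and 14.52).

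**Figure D4:**
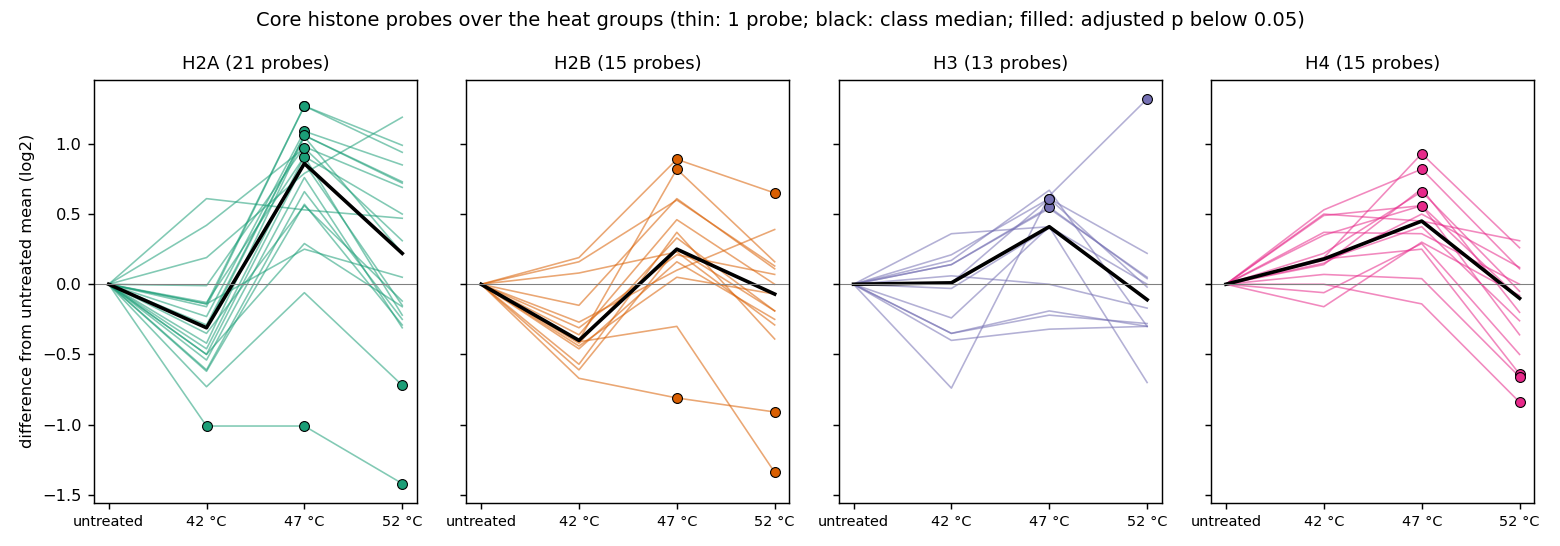
Difference of each kept core histone probe from its untreated mean (y axis, log2) at 42, 47 and 52 °C (x axis), by class; thin lines are probes, the black line is the class median and filled points passed an adjusted p of 0.05. The medians of H2A are -0.31, 0.86 and 0.22 and those of H4 are 0.18, 0.45 and -0.10.

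Probes of the same gene were then set side by side. In batch B 16 genes had at least 2 kept probes. At 47 °C 11 of them had some but not all probes called, 0 had all called and 0 had probes called in opposite directions. The gap between the lowest and the highest change of a gene had a median of 0.53 at 47 °C and 0.48 at 52 °C. Hist1h1c had the only full call at 52 °C (gap 0.30), and at 42 °C also. For Hist2h2aa1 the second probe, 7050546, stood at 6.91, 6.33 and 6.73 at 47 °C, against 6.18, 6.47 and 6.57 in untreated cells, with overlap, and changed by 0.25 at 47 °C and 0.05 at 52 °C where probe 7150356 fell. For Hist1h3f the gap at 52 °C was 1.28, and for Hist1h4f probe 6860347 and another probe differed by 0.96. What each probe binds among the near-identical copies was not tested.

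**Figure D5:**
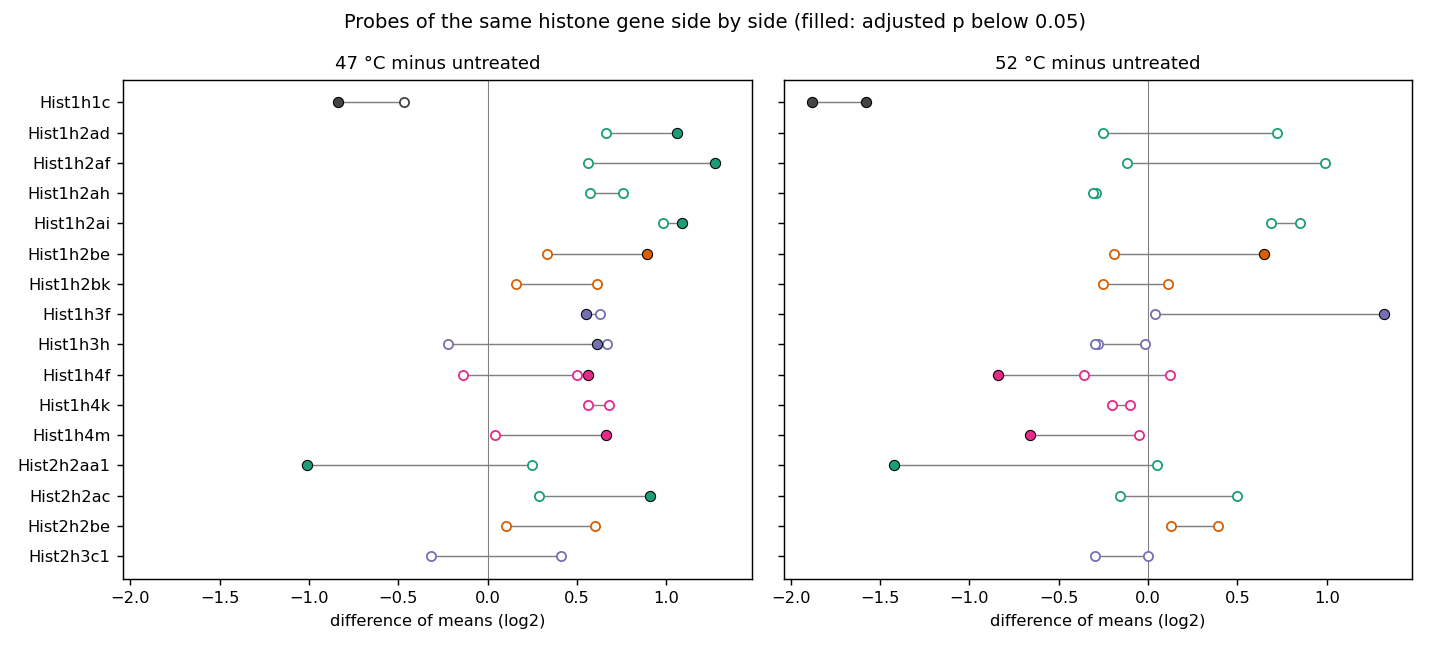
Change against untreated cells (x axis, log2) at 47 °C and at 52 °C for the probes of the 16 genes with at least 2 kept probes (y axis); a grey line joins the probes of a gene and filled points passed an adjusted p of 0.05. At 52 °C the probes of Hist1h1c lie at -1.88 and -1.58, while those of Hist2h2aa1 lie at -1.42 and 0.05.

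Actuation was set against untreated cells to ask the same of droplet movement at each frequency. At 18 kHz 2 of 59 kept probes were called higher (3.39%, against 1.28% of all kept probes) and 1 lower (1.69%, against 1.66%), with a median change of -0.07 against -0.08 for all kept probes. Hist1h2ae, an H2A gene, stood at 7.50, 7.87 and 7.73 at 18 kHz, against 6.98, 6.38 and 6.20 in untreated cells, without overlap, and rose 2.27-fold (1.18 ± 0.21 SE, limma adjusted p = 0.0297). Hist1h3f probe 2600048 stood at 7.94, 8.0 and 8.07 at 18 kHz, against 7.53, 7.51 and 7.15 in untreated cells, and rose 1.52-fold (adjusted p = 0.0479). Both rises depended on the normalization. With median scaling Hist1h2ae changed by 0.03 (limma adjusted p = 0.959) and Hist1h3f probe 2600048 by -0.61 (adjusted p = 0.244). Of 6 omissions of a single array, 3 kept Hist1h2ae as called and 1 kept Hist1h3f probe 2600048. Neither passed with a block for the replicate number or with only the arrays of the 2 groups. Before normalization the bead intensities of Hist1h2ae were 211.3, 136.3 and 273.1 at 18 kHz, against 261.3, 210.1 and 198.7 in untreated cells, and those of Hist1h3f were 243, 139.1 and 319.3 at 18 kHz, against 329.7, 329.2 and 281 in untreated cells. Before normalization the group ranges overlapped for both probes, and for Hist1h2ae 18 kHz replicate 3 lay above every untreated array. The third called probe was Hist2h2aa1 7150356. The part of array brightness in these calls was not tested. With an array left out 0 to 15 probes were called. There were 0 without untreated replicate 2 (0.453% of all kept probes were called). There were 15 of 58 without 18 kHz replicate 3, the brightest of its group, where 31.6% of all kept probes were called. Under median scaling 1 probe was called higher and 22 lower, where 49.1% of all kept probes were called. The probe called higher was that of Hist1h1b (1.37, limma adjusted p = 0.0305). The medians were then -1.01 for histone probes and -1.09 for all kept probes. H4 had the lowest class median (-0.30), with 11 of 12 probes below 0 and 0 called; 18 kHz replicate 2 read -0.97 over the H4 probes, beside -0.27 and -0.06. The H4 probe with the smallest p was Hist1h4k probe 3370452 (-0.90, limma adjusted p = 0.099), and the H2B probe was Hist1h2bm (-0.73, adjusted p = 0.2). At 18 kHz Hist1h4k probe 3370452 was detected on 1 of 3 arrays and Hist1h2bm on 2 of 3.

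At 1 kHz 0 of 59 kept histone probes were called by limma, as were 0 of all 14130 kept probes. Of the 59, 2 had an unadjusted p below 0.05, and the share of all kept probes that did so was not computed. The median change was 0.18, against -0.04 for all kept probes, and 47 of 59 probes were above 0. All untreated arrays of batch A were on beadchip 2 and 2 of the 3 arrays at 1 kHz on beadchip 1, and with the beadchip as a block the median was 0.08. By class the medians were 0.04 for H2A, 0.23 for H2B, 0.29 for H3 and 0.19 for H4. Those 2 probes were Hist1h3d, with 8.61, 8.59 and 8.32 at 1 kHz against 8.16, 8.25 and 8.13 in untreated cells (0.33 ± 0.13 SE), and Hist1h4f probe 6380377, with 5.69, 5.75 and 5.82 at 1 kHz against 5.03, 5.35 and 5.49 in untreated cells (0.46 ± 0.19 SE), where it was detected on 1 of 3 arrays. All 1 kHz arrays lay above all untreated arrays for both, and for 10 of the 59 probes in all (3.73% of all kept probes did so), with limma adjusted p = 1 for each. In the comparison of 18 kHz with 1 kHz Hist1h2ae was higher (2.18-fold, limma adjusted p = 0.0385) and Hist2h2aa1 probe 7150356 at least 1.06-fold lower (adjusted p = 0.035), that is 1 called higher (against 1.45% of all kept probes) and 1 lower (against 0.955%). Under median scaling 0 were called higher and 36 lower there, where 54.9% of all kept probes were called. Hist1h2ae then changed by -0.11 (limma adjusted p = 0.82). The medians were then -1.14 for histone probes and -1.13 for all kept probes. All 12 H4 probes were below 0 there (median -0.58) and 0 were called. Of these, Hist1h4f probe 6380377, Hist1h4k probe 3390431 and Hist1h4m probe 150291 were detected on 0 of 3 arrays at 18 kHz. Hist1h4a was detected on 3 of 3. Over all kept histone probes the median of this comparison was -0.22. It was -0.04 without the 2 dimmer 18 kHz arrays, which leaves 1 array at 18 kHz.

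Genes that act with the replication-dependent histones were read from 4 lists, at 47 and 52 °C first. Of all kept probes, 3.42% were called higher and 4.41% lower at 47 °C, 6.55% higher and 6.24% lower at 52 °C and 1.66% lower at 18 kHz, and the counts below stand beside these shares. Of 27 kept probes for histone mRNA processing and decay 1 rose at 47 °C, that of Lsm10, a subunit of the U7 particle (0.56, limma adjusted p = 0.0466), and 1 at 52 °C, that of Zfp473, which takes part in histone mRNA 3′ end formation (0.57, adjusted p = 0.0379). The list medians were -0.02 at 47 °C and 0.07 at 52 °C. Of 26 probes for histone chaperones and chromatin assembly 4 fell at 47 °C and 0 rose, with a median of -0.29: Nasp, a chaperone of H1 and H3 (-1.10, adjusted p = 0.0188), both probes of Rbbp7 (-0.75 and -0.93) and Nap1l1, a chaperone of H2A and H2B (-0.71). At 52 °C 1 of them fell, Hira, which deposits the variant H3.3 outside S phase (-1.22, adjusted p = 0.00445, detected on 7 of 12 arrays). Of 42 probes for DNA replication 4 fell and 0 rose at 47 °C, with a median of -0.22: both probes of the helicase subunit Mcm6 (-0.76 and -1.16), Cdk2 (-0.71) and the ribonucleotide reductase subunit Rrm2 (-1.05). Rrm2 fell at 42 °C as well (-1.27, adjusted p = 0.0235), the only call of the 4 lists there, and at 52 °C the thymidylate synthase gene Tyms fell (-0.66) and Pold1, a DNA polymerase subunit, rose (0.79). At 18 kHz 3 of 41 probes for DNA replication fell, 2 probes of the helicase subunit gene Mcm4 (-1.23 and -0.81, detected on 6 and 7 of 9 arrays) and that of the cyclin Ccne2 (-1.04, detected on 4 of 9), with a median of -0.30. Another Mcm4 probe, detected on all 9 arrays, did not change detectably (-0.07, adjusted p = 0.683), and the other 3 lists had 0 calls; at 1 kHz all 4 lists had 0. The replication-independent variants, whose mRNAs carry a poly(A) tail, gave 1 rise and 2 falls among 13 probes at 47 °C: H3f3a (-0.52) and H3f3b probe 1980561 (-0.46) fell while H3f3b probe 4900450 rose (1.60, detected on 4 of 12 arrays), 2 probes of the same gene in opposite directions. At 52 °C both probes of H2afv rose (0.61 and 0.62) and H3f3a fell (-0.48). The medians of the variants were 0.04 at 47 °C and -0.01 at 52 °C, against 0.53 and -0.08 for the replication-dependent and linker probes.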

How the data were processed

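Per the file headers, the authors deposited for either batch the mean bead intensity per probe and array as the scanner software gave it, with no normalization or background step, next to a detection p-value. The array software was GSGX 1.7.0 in batch A and 1.9.0 in batch B, per the file headers. Of 24 arrays 3 in batch A matched no sample and were not used, and 0 pairs of arrays held identical values. The authors also deposited a log2 table of 40083 probes whose columns have a median of 0; its method is not given in the sources used here, and it served as an alternative only. Its gene-centred values correlated with those of the log2 intensities at 0.23 to 0.873 (batch A) and at 0.807 to 0.988 (batch B).

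The batches were handled separately in R 4.3.3 with limma 3.58.1, and data.table (version 1.17.8) read the files. Limma's nec function subtracted background by a normal-exponential fit that infers negative controls through the detection p-values and added an offset of 16; quantile normalization and log2 followed. Probes with a detection p below 0.01 on at least 3 arrays were kept (14130 and 13773). Limma's linear model was fitted to all arrays of a batch, two-sided, with Benjamini-Hochberg adjustment over all kept probes of a comparison; the prior degrees of freedom were 2.5 and 4.6. The 9 comparisons included 2 added after the data were seen. Of the 89 member probes 86 matched RefSeq by accession and 3 by synonym; the table of build GRCm38.p6 served for names and promoter windows.

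In a self-test with 200 changed probes per batch, 57% (batch A, 18 kHz against untreated) and 70% (batch B, 42 °C against untreated) of those shifted by 1 log2 were called, as were 85% and 98% of those shifted by 2, and 9 of 13930 and 15 of 13573 unchanged probes were called. The members, gene lists and comparisons were chosen with earlier results of these data known. Named probes are, per comparison, up to 8 called members with the smallest p in each direction, per class the member with the smallest p and per batch that with the highest mean, genes with several probes, members called repeatedly, and up to 4 called members of each list; the text gives a selection. One marker gene is not reported here.

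The alternatives tried were leaving the background in, an offset of 50, median scaling, no detection filter, detection on every array, 1 probe per gene, only the arrays of 2 groups, a block for the beadchip or for the replicate number, each beadchip alone, the deposited log2 table, leaving out each array and, chosen after seeing the data, leaving out the 2 dimmer 18 kHz arrays. Figures were drawn with matplotlib 3.10.9.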

Additional observations from a re-analysis of the deposited data

How the results depend on the processing

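The arrays of a group number 3, and many calls sit near the threshold: of 37 called probe and comparison pairs against untreated cells 7 stood whichever array was left out, both probes of Hist1h1c at 42 °C and at 52 °C, Hist1h4d at 47 °C, and Hist1h2bg and Hist2h2aa1 at 52 °C. With 1 array left out, the number of histone probes called lay between 0 and 15 for 18 kHz against untreated cells (3 with all arrays), 0 and 0 for 1 kHz, 0 and 15 for 18 kHz against 1 kHz, 2 and 3 for 42 °C, 1 and 9 for 47 °C, 5 and 20 for 52 °C, 4 and 20 for 52 °C against 42 °C, 1 and 8 for 47 °C against 42 °C and 0 and 14 for 52 °C against 47 °C. The median change lay between -0.11 and 0.02, 0.10 and 0.20, -0.27 and -0.13, -0.27 and -0.07, 0.42 and 0.56, -0.18 and 0.12, -0.01 and 0.18, 0.47 and 0.62, and -0.60 and -0.39 in the same order. Without 18 kHz replicate 3, which gave the 15 in both 18 kHz comparisons, 31.6% and 28% of all kept probes were called. The causes of the shifts below were not tested, except that fewer arrays or probes entered some of the fits.

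Median scaling gave 23 called probes (median -1.01) for 18 kHz and 36 (-1.14) for 18 kHz against 1 kHz. In these comparisons it called 49.1% and 54.9% of all kept probes. It gave 23 (-0.46) for 52 °C and 0 for 52 °C against 47 °C. Its medians were 0.03 at 47 °C, -0.24 for 52 °C against 42 °C and 0.24 for 47 °C against 42 °C. It turned the sign at 18 kHz of Hist1h2bh (-1.17) and Hist1h3f probe 2600048 (-0.61), in 18 kHz against 1 kHz of Hist1h2ae (-0.11), Hist1h2bc (-1.18), Hist1h3d (-1.18), Hist1h3e (-1.24) and Hist2h2ac probe 6290326 (-0.98), and at 47 °C of Hist1h3f probe 2600048 (-0.01). Without background correction 7 probes were called for 18 kHz and 15 for 47 °C against 42 °C, and with an offset of 50 these were 5 and 18. With no detection filter the counts were 1 for 18 kHz, 1 for 18 kHz against 1 kHz, 6 for 47 °C, 7 for 52 °C, 5 for 52 °C against 42 °C, 3 for 47 °C against 42 °C and 5 for 52 °C against 47 °C. Detection on every array gave medians of 0.06 for 1 kHz and -0.05 for 18 kHz against 1 kHz, and 15 calls for 47 °C against 42 °C. With 1 probe per gene the counts were 1 for 18 kHz against 1 kHz, 1 for 42 °C, 11 for 47 °C and 6 for 52 °C against 42 °C.

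With only the arrays of the 2 groups the counts were 0 for 18 kHz, 0 for 18 kHz against 1 kHz, 6 for 52 °C, 4 for 52 °C against 42 °C, 14 for 47 °C against 42 °C and 0 for 52 °C against 47 °C. With the beadchip as a block the median was 0.08 for 1 kHz and -0.10 for 42 °C, and 0 were called for 18 kHz against 1 kHz, 3 for 42 °C, 20 for 47 °C and 11 for 52 °C. In a fit to 1 beadchip at least 1 group held a single array, assumed to vary like the other groups, except for 47 °C against untreated cells on beadchip 1, and for 18 kHz against untreated cells and 52 °C against 42 °C on beadchip 2. Counts are given here only for those exceptions. Beadchip 1 alone gave 13 for 47 °C. For 18 kHz against 1 kHz, with only the dim 18 kHz replicate 1 on that beadchip, Hist1h3g (0.49) and Hist1h4h (0.55) turned their sign. Beadchip 2 alone, with fewer arrays than both beadchips together, gave 0 for 18 kHz and 0 for 52 °C against 42 °C. The deposited log2 table gave 9 for 18 kHz, 8 for 18 kHz against 1 kHz, 6 for 42 °C, 25 for 47 °C against 42 °C and 23 for 52 °C against 47 °C. Without the 2 dimmer 18 kHz arrays 1 probe was called against untreated cells and 1 against 1 kHz (median -0.04), with the lone 18 kHz array assumed to vary like the other groups.

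Whether the replicate numbers pair the arrays cannot be told from 3 arrays per group. The deviations of arrays with the same number correlated at -0.23 to 0.45 in batch A (3 of 9 pairs over 0.1). In batch B they did so at -0.43 to 0.15 (5 of 18 over 0.1). With different numbers these were -0.58 to 0.43 (4 of 18) and -0.31 to 0.49 (6 of 36). The highest values, 0.45 in batch A and 0.49 in batch B, came from arrays on the same beadchip. With the replicate number as a block 1 probe was called for 18 kHz, 0 for 18 kHz against 1 kHz, 10 for 47 °C and 6 for 52 °C against 42 °C.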
